A study of Mus musculus with 8 samples.

Results

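The 10 genes described here encode 9 secreted glycoproteins of the extracellular matrix and the adhesion receptor CD44. They were chosen by name as fibronectin (Fn1), tenascin-C (Tnc), osteopontin (Spp1), periostin (Postn), TGF-beta-induced protein (Tgfbi), SPARC (Sparc), thrombospondins 1 and 2 (Thbs1, Thbs2), versican (Vcan) and Cd44. All 10 were found among the 23523 genes and unnamed transcripts of the table, in 31 RefSeq transcript accessions. RNA had been sequenced from 5 mouse glioblastomas and 3 samples of normal mouse brain. The tumours were induced with a lentiviral vector that expressed HrasG12V and an shRNA against p53, and GFP-positive tumour tissue was dissected free of normal brain from mice at clinical endpoint. Strain, sex, age, brain region and the vector's promoter are not stated in the labels. Nor do they say that each sample is its own animal, and the p-values therefore measure only the spread between these samples, which may be technical.

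Matricellular proteins are secreted into the matrix but act mainly by tuning how cells adhere, migrate and receive growth factors, and many of them are made in quantity only in development, wounds and tumours. They bind integrins, syndecans, CD36 and CD47 on the cell surface. CD44 is the main receptor for hyaluronan, the polysaccharide around which the matrix of the brain is built, and also binds osteopontin. Fibronectin and versican are larger components of provisional matrix that are commonly described with this group.

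The libraries held between 5490356 and 15564279 fragments in the tumours, with tumour 4 the deepest, and between 6315238 and 7719194 in the brains. Trp53, the gene targeted by the shRNA, lay between 2.74 and 5.92 CPM in tumours and between 4.74 and 7.21 CPM in brains, and was not called (log2 fold change -0.46 ± 0.35, SE; edgeR adjusted p = 0.262). CPM (fragment counts relative to library size) are scaled by library total and edgeR's TMM factor. Hras lay between 327 and 479 CPM in tumours, against 94.2 to 103 CPM in brains. Summed over 10 neuronal genes (Snap25, Rbfox3 and others), the level was 351 to 1027 CPM in tumours and 7691 to 8880 CPM in brains, in the direction of the tissue labels. Of these genes 7 were called lower, beside 33.9% of all tested genes, and 3 were not called (Stmn2, Nefl and Nefm). Stmn2 was higher in tumour 2 (349 CPM) than in the brains (225 to 257 CPM).

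All 10 genes were higher in glioblastoma than in normal brain, and for each of them the lowest tumour lay above the highest brain. Over all 14641 genes tested, 37.1% were called higher (edgeR quasi-likelihood test, Benjamini-Hochberg adjusted p under 0.05), and in 36.1% the groups did not overlap with tumours on top. The log2 fold changes of the 10 genes ran from 3.64 to 8.03 with a median of 5.96, beside a median of 0.06 over all genes tested. The 10 were chosen with earlier results of these data known, so their count and median are descriptions, not tests. The gene with the smallest rise, Sparc, was exceeded by 7.73% of the tested genes and Tnc by 0.697%. Together the 10 genes took 1.02% to 1.69% of all fragments in tumours and 0.0241% to 0.0334% in brains. The samples are pieces of tissue, so more RNA per cell and more cells of a type cannot be told apart.

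**Figure D1:**
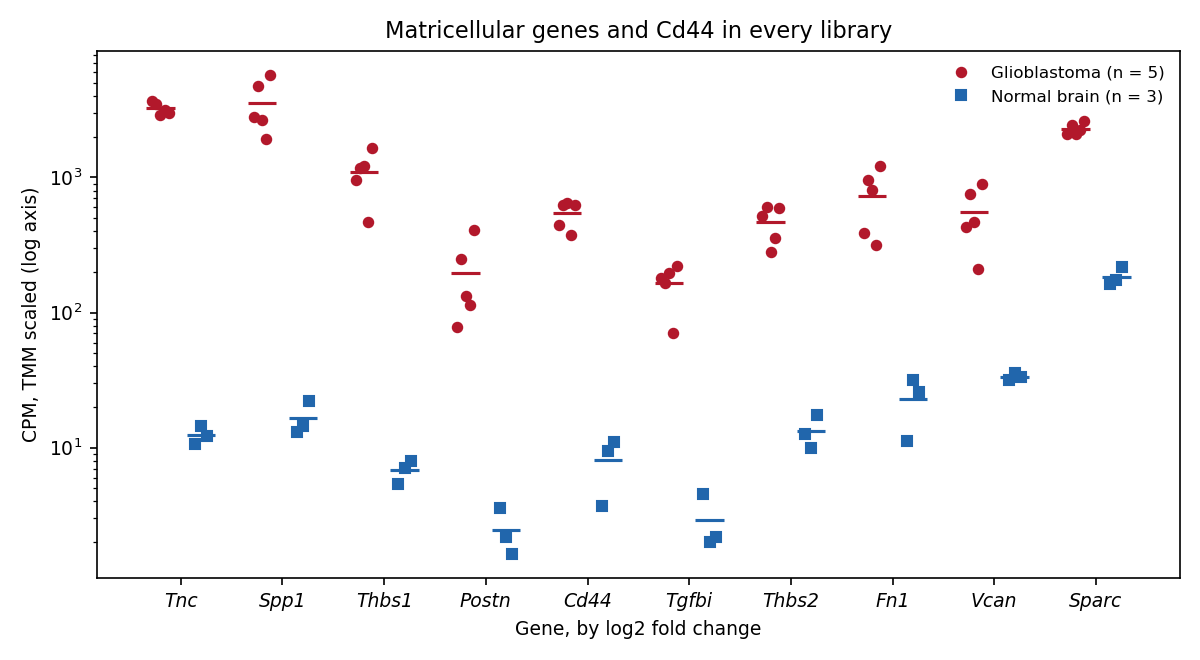
Level of each gene in every library, in TMM-scaled CPM on a log axis; red circles are the 5 glioblastomas, blue squares the 3 normal brains, and short lines the group means. For all 10 genes the lowest tumour is above the highest brain, by 5.90 times for Vcan and by 200.5 times for Tnc.

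Fibronectin, tenascin-C, periostin and the TGF-beta-induced protein are adhesive proteins that bind integrins. Tnc had 3705, 3474, 2922, 3182 and 3002 CPM in tumours 1 to 5, against 10.7, 14.6 and 12.1 CPM in brains 1 to 3. The tumours differed from each other by at most 1.27 times, and the lowest of them was 200.5 times the highest brain. The log2 fold change of Tnc was 8.03 ± 0.23 (SE, 5 tumours against 3 brains; edgeR adjusted p = 2.2e-07), the largest of the 10.

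Fn1, the scaffold on which other matrix proteins assemble, had 387, 954, 802, 316 and 1212 CPM in tumours 1 to 5, against 11.2, 31.6 and 25.9 CPM in brains 1 to 3. Tumours 1 and 4 were low and tumour 5 was high, and brain 1 was below the other two. The groups did not overlap, and Fn1 rose by 5.00 ± 0.63 on the log2 scale (SE; edgeR adjusted p = 0.00013).

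Postn, a protein of wound and tumour stroma, had 78.0, 251, 132, 113 and 411 CPM in tumours 1 to 5, against 3.55, 2.16 and 1.64 CPM in brains 1 to 3. It was the most variable of the 10 among tumours, with tumour 5 at 5.27 times tumour 1. The brain level rested on 48 fragments in all. Its log2 fold change was 6.34 ± 0.74 (SE; edgeR adjusted p = 8.6e-05; 95% interval 4.65 to 8.03).

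Tgfbi, first described as a gene induced by TGF-beta, had 179, 165, 197, 70.8 and 223 CPM in tumours 1 to 5, against 4.57, 2.02 and 2.18 CPM in brains 1 to 3. Tumour 4 stood apart below the other tumours and was still 15.5 times the highest brain. The brains held 57 fragments. Tgfbi rose by 5.85 ± 0.51 (log2, SE; edgeR adjusted p = 1.7e-05).

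Osteopontin is a phosphorylated glycoprotein that binds integrins and CD44 and is made by macrophages among other cells. Spp1 had 2813, 4756, 2673, 1915 and 5759 CPM in tumours 1 to 5, against 13.03, 14.6 and 22.1 CPM in brains 1 to 3. Tumours 2 and 5 were high and tumour 4 low, a range of 3.01 times, and the lowest tumour was 86.7 times the highest brain. The log2 fold change was 7.75 ± 0.55 (SE; edgeR adjusted p = 5.3e-06). The summed fragments of Spp1, alone among the 10, were not whole numbers to within 0.01 in some libraries. Its largest estimate in tumour 1 was deposited as 16576.1, a value given more coarsely than 0.01. The cause was not tested.

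Cd44, the receptor among the 10, had 441, 630, 648, 373 and 630 CPM in tumours 1 to 5, against 3.72, 9.38 and 11.04 CPM in brains 1 to 3. Among tumours it varied by 1.74 times, less than Spp1, and brain 1 was the low brain. It rose by 6.07 ± 0.44 (log2, SE; edgeR adjusted p = 6.5e-06).

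Thrombospondins 1 and 2 are related trimers that bind CD36 and CD47; thrombospondin 1 is also known as an activator of latent TGF-beta. Thbs1 had 962, 1180, 1214, 468 and 1641 CPM in tumours 1 to 5, against 5.41, 7.07 and 7.91 CPM in brains 1 to 3. Thbs2 had 519, 608, 282, 356 and 594 CPM in the same tumours, against 12.5, 9.96 and 17.3 CPM in the brains. Tumour 4 was the lowest for Thbs1 and tumour 3 for Thbs2, and neither gene overlapped between groups. Their log2 fold changes were 7.32 ± 0.51 for Thbs1 (SE; edgeR adjusted p = 4.8e-06) and 5.15 ± 0.38 for Thbs2 (SE; edgeR adjusted p = 6.8e-06).

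The log2 ratio of Thbs1 to Thbs2 was 1.16 ± 0.65 in tumours (SD, n = 5) and -0.92 ± 0.38 in brains (SD, n = 3), higher in 5 of 5 tumours than in any brain. It is a ratio of CPM, not of levels per length, and only its difference between groups is read. The difference of 2.08 is a description, with no test, because the pair was chosen after its values were seen.

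SPARC is a collagen-binding glycoprotein and was the most abundant of the 10 in normal brain. Sparc had 2088, 2464, 2090, 2250 and 2602 CPM in tumours 1 to 5, against 162, 174 and 218 CPM in brains 1 to 3. It varied little within either group, by 1.25 times among tumours and 1.35 times among brains. Its rise was the smallest, 3.64 ± 0.18 on the log2 scale (SE; edgeR adjusted p = 9.9e-07), with a 95% interval of 3.22 to 4.05 that lay below those of Tnc, Spp1, Thbs1, Postn, Cd44, Tgfbi and Thbs2.

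Versican is a chondroitin sulphate proteoglycan that binds hyaluronan, and in normal brain it is known as a product of oligodendrocyte precursors. Vcan had 429, 757, 466, 211 and 897 CPM in tumours 1 to 5, against 31.5, 35.8 and 33.5 CPM in brains 1 to 3. The brains agreed within 1.14 times while the tumours spread over 4.25 times, with tumour 4 lowest at 5.90 times the highest brain. Vcan rose by 4.04 ± 0.49 (log2, SE; edgeR adjusted p = 0.00011).

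**Figure D2:**
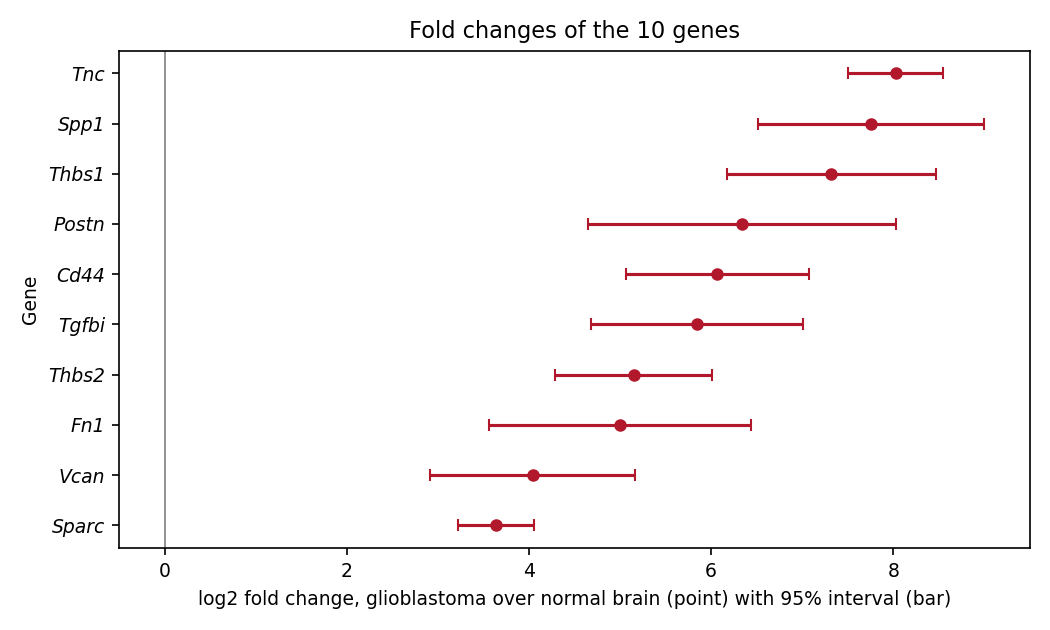
Log2 fold change of each gene, glioblastoma over normal brain (points), with its 95% interval (bars), from edgeR on 5 tumours and 3 brains. The values run from 3.64 for Sparc to 8.03 for Tnc, and no interval reaches 0.

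Levels can be compared between genes only per length of transcript, for which the authors' FPKM summed per gene were used. In tumours the order by mean FPKM was Spp1 (2755 ± 1237 FPKM, SD, n = 5), Sparc (1030 ± 104), Tnc (444 ± 48.9), Thbs1 (184 ± 71.3), Cd44 (120 ± 28.6), Fn1 (87.9 ± 45.1), Thbs2 (77.6 ± 24.5), Tgfbi (63.4 ± 21.9), Postn (62.9 ± 43.2) and Vcan (45.8 ± 22.1). The first 3 were separated from each other and from Thbs1 in every tumour without overlap. From Thbs1 down, each gene overlapped its neighbour in FPKM over the 5 tumours, so that part of the order is within their spread. Spp1 alone made up 45.2% to 63.7% of the summed FPKM of the 10 genes in a tumour, against 10.5% to 12.8% in a brain.

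In normal brain the order was different. Sparc came first with 83.4 ± 13.7 FPKM (SD, n = 3) and took 74.2% to 76.2% of the summed FPKM of the 10 genes, followed by Spp1 with 12.8 ± 3.63 FPKM. Next was Vcan with 3.58 ± 0.304 FPKM, and Fn1, Thbs2, Cd44, Tnc, Thbs1, Tgfbi and Postn lay between 2.75 and 0.776 FPKM on average. Tnc, which followed Sparc in tumours, came behind Cd44 in brain. Neighbours from Vcan to Tnc, and from Thbs1 to Postn, overlapped over the 3 brains.

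The tumours did not share 1 profile of these genes. The SD of log2 CPM among tumours was 0.14 for Sparc and Tnc, a value that 7.43% and 7.68% of the tested genes were below, and 0.96 for Postn, which 89.4% were below. Fn1 (0.84), Vcan (0.82), Thbs1 (0.68), Tgfbi (0.65), Spp1 (0.65), Thbs2 (0.49) and Cd44 (0.37) came between, and the median over all tested genes was 0.38. Tumour 5 had the highest level for 7 of the 10 genes and tumour 4 the lowest for 6, namely Fn1, Spp1, Tgfbi, Thbs1, Vcan and Cd44.

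**Figure D3:**
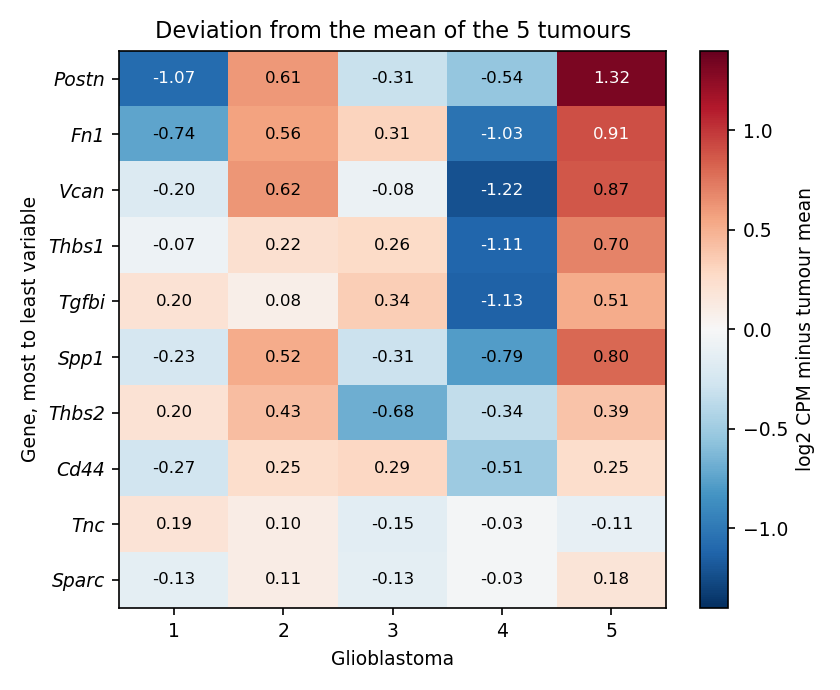
Deviation of each gene from its mean over the 5 tumours, in log2 CPM (red above, blue below), with genes from the most to the least variable. Tumour 4 is 1.22 below the mean for Vcan and 1.13 below for Tgfbi, tumour 5 is 1.32 above for Postn, and Tnc and Sparc stay within 0.19 of their means.

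Marker genes of other cell types also differed between these tumours. The counts of called markers are to be read against the 37.1% of all tested genes called higher and the 33.9% called lower. In tumours 1 to 5 the summed CPM of 14 macrophage and monocyte genes were 1126, 1552, 1978, 1140 and 1881, against 50.1 to 68.9 in brains, and all 14 were called higher; Clec4d had no fragment in the brains. For 10 fibroblast and meningeal genes they were 2001, 1527, 2624, 1614 and 2769, against 150 to 264 in brains, with 6 called higher and 2 lower. That sum holds Pdgfra, which is also in the oligodendrocyte precursor list, and without it was 1211, 1394, 2383, 277 and 2411 in tumours 1 to 5, against 54.6 to 141 in brains. For 10 endothelial genes they were 414, 394, 547, 280 and 428, against 128 to 144 in brains, with 8 called higher. For 10 pericyte and smooth muscle genes they were 344, 349, 841, 265 and 613, against 112 to 131 in brains, with 5 called higher and 1 lower. The order of tumours depends on the summary, since a few abundant genes carry a sum. By mean log2 CPM over the list, tumour 4 was the lowest for the fibroblast list and for the macrophage (4.52) and endothelial (4.36) lists, and tumour 2 for the pericyte list (3.94, against 4.12 in tumour 4).

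Tumour 4 was the highest for the oligodendrocyte precursor, astrocyte and myelinating oligodendrocyte lists, by sum and by mean log2 CPM. The 10 oligodendrocyte precursor genes summed to 1214, 156, 269, 2345 and 409 CPM in tumours 1 to 5, against 305 to 339 CPM in brains, with 1 called higher and 1 lower; without Pdgfra and Cspg4, which other lists also hold, the sums were 393, 17.5, 18.5, 947 and 34.3 CPM in tumours 1 to 5, against 178 to 212 CPM in brains. For 10 astrocyte genes the range was 997 to 2742 CPM in tumours, against 5832 to 6355 CPM in brains, with 1 called higher and 6 lower. For 10 myelinating oligodendrocyte genes it was 269 to 1044 CPM in tumours, against 3324 to 6444 CPM in brains, with 9 called lower. The 10 microglia genes summed to 447 to 630 CPM in tumours, against 386 to 415 CPM in brains, with 4 called higher and 3 lower. The part of these cell types in the levels of the 10 genes was not tested.

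The deposited fragments of 5 of the genes were split among several accessions. For Vcan, Cd44 and Fn1 these differ by well known cassette exons. The junction sequences that tell the forms apart are shown here, 20 bases on each side from the GENCODE M21 transcripts (GRCm38, 5′ to 3′ on the minus strand), with the downstream exon in capitals. Versican carries its chondroitin sulphate chains on the alpha exon (2880 bases, chr13:89702918-89705797) and the beta exon (5217 bases, chr13:89688285-89693501). The V0 form has both exons, V1 only the beta exon, V2 only the alpha exon and V3 neither; V2 is known as the form of the mature brain.
Vcan V0, alpha exon to beta exon: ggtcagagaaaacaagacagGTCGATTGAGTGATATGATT
Vcan V1, preceding exon to beta exon: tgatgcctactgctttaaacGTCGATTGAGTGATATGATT
Vcan V2, alpha exon to following exon: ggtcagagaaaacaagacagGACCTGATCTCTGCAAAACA

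The V2 form of versican made up 0%, 0%, 0%, 15.5% and 0% of the estimated Vcan fragments in tumours 1 to 5, against 33.9%, 38.4% and 32.1% in brains 1 to 3. The 4 tumours listed at 0 and the brains do not overlap, and tumour 4 lies between them. The V1 form went the other way, with 4.59%, 8.14%, 13.2%, 1.22% and 17.2% in tumours 1 to 5, against at most 0.00258% in a brain. Only 186, 248 and 246 Vcan fragments were held by brains 1 to 3, so a low V1 share there could be missed. V0, the leading form, held 86.4% ± 5.63 in tumours (SD, n = 5) and 60.5% ± 2.20 in brains (SD, n = 3), higher in 5 of 5 tumours than in any brain. This difference of 25.9 percentage points had p = 0.0357 in a two-sided exact permutation test, the smallest possible, and an adjusted p of 0.0714 over the 4 genes tested, so it did not pass.

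**Figure D4:**
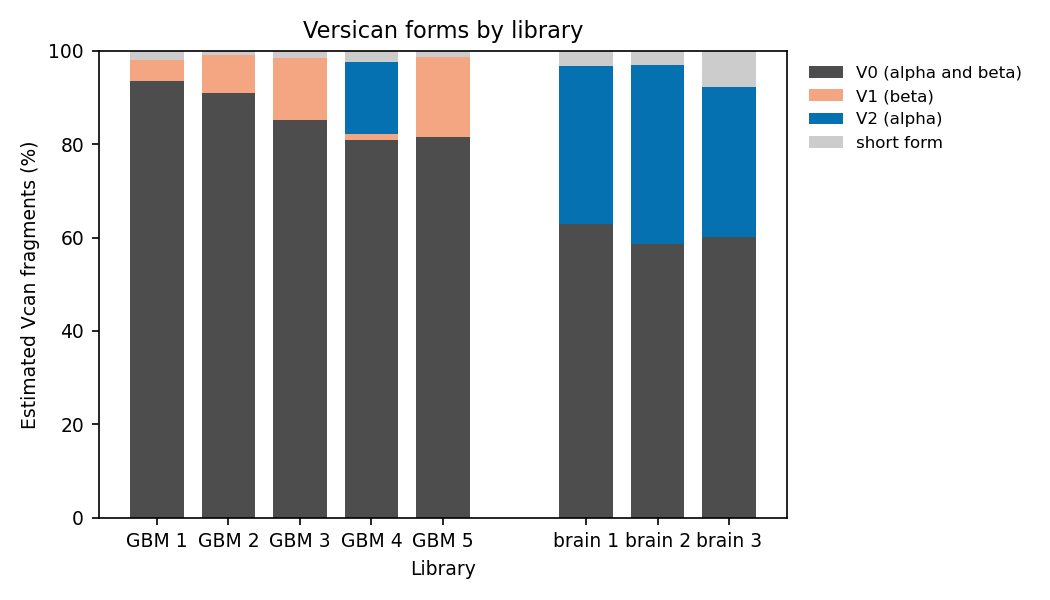
Share of the estimated Vcan fragments given to each versican form in every library, in percent; glioblastomas (GBM) 1 to 5 are on the left and brains 1 to 3 on the right. V2 (blue) takes 32.1% to 38.4% in brains, 15.5% in tumour 4 and 0% in the other tumours, where V1 takes 4.59% to 17.2%. Shares are of fragments and not per length of transcript.

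In CPM, forms with the beta exon differed between groups without overlap. V0 and V1 together summed to 421, 751, 459, 173 and 885 CPM in tumours 1 to 5, against 19.8, 20.98 and 20.1 CPM in brains 1 to 3. V2 was listed at 0 in 4 tumours and at 32.8 CPM in tumour 4, against 10.7, 13.7 and 10.8 CPM in the brains. The V2 estimate in tumour 4 rested on 563 fragments and those in the brains on 63.0, 95.2 and 79.1. Tumour 4 was the tumour with the highest summed level of oligodendrocyte precursor genes (2345 CPM). Tumour 1, the next highest (1214 CPM), was among the tumours listed at 0 for V2. The part of those cells in the V2 share was not tested.

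CD44 is made as a standard form without variable exons or with up to 10 of them inserted in the stem outside the membrane.
Cd44 standard form, chr2:102853015-102853236 to chr2:102828542-102828610: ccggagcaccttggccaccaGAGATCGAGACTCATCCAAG
Cd44 longest form, chr2:102853015-102853236 to chr2:102848657-102848782: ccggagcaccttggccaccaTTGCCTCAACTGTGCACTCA
The standard form held 92.2%, 90.0%, 93.3%, 94.1% and 87.2% of the estimated Cd44 fragments in tumours 1 to 5, against over 99.9% in each brain. The mean difference was -8.64 percentage points, lower in 5 of 5 tumours than in any brain (two-sided exact permutation p = 0.0357, the smallest possible; adjusted p = 0.0714, not passing). The brains held only 22, 65 and 81 fragments of this form, a depth at which forms of a few percent could be missed. The longest form, with all 10 variable exons, held 1.39% to 6.75% in tumours.

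Fibronectin mRNA includes or skips cassette exons known as EIIIB (273 bases, chr1:71613763-71614035) and EIIIA (270 bases, chr1:71603660-71603929), which are largely skipped in plasma fibronectin from liver and included in fibronectin of developing and remodelling tissue.
Fn1 with EIIIB: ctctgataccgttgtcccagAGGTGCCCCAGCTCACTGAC
Fn1 without EIIIB: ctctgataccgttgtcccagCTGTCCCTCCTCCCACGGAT
Fn1 with EIIIA: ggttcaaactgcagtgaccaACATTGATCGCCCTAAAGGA
Fn1 without EIIIA: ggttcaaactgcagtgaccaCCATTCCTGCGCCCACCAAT
EIIIA was present in 40.5%, 62.0%, 54.9%, 37.1% and 54.8% of the estimated Fn1 fragments in tumours 1 to 5, against 0.00724%, 58.3% and 54.5% in brains 1 to 3. EIIIB was present in 13.1% to 26.2% in tumours, against 0%, 58.3% and 54.4% in brains. Only 1 of the 7 listed Fn1 forms holds EIIIB, and it also holds EIIIA, so the shares of these exons are not separate measurements. The groups overlapped for both exons, and brain 1, with 66 Fn1 fragments, stood apart from the other brains. The leading accession, which lacks both exons, held 45.0% ± 8.94 in tumours (SD, n = 5) and 46.8% ± 47.7 in brains (SD, n = 3; exact permutation p = 0.857). At 66 to 219 fragments per brain these estimates give no usable brain share.

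For Spp1 the leading accession held 91.2% ± 1.23 in tumours (SD, n = 5) and 88.2% ± 20.3 in brains (SD, n = 3; exact permutation p = 0.750). Postn had 12 fragments in the lowest library, under the minimum of 20, and its forms were not compared. The other 5 genes had 1 accession each.

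Promoter sequences were in the RefSeq table (GRCm38.p6) for 8 of the 10 genes, in 11 windows; Fn1 and Thbs1 were not matched. In the 250 bases before each start site, 3 motifs were searched on both strands. The TATA box letters TATAAA were found for 4 of the 8 genes, namely Postn, Tnc, Spp1 and, on the opposite strand, Thbs2. They were in 5 of the 11 windows, and 12.4% of all 32851 windows of this length hold them. The GC box letters GGGCGG were found for 3 of the 8 genes (Tnc, Tgfbi and Vcan), in 4 of the 11 windows, and 32.7% of all windows hold them. The AP-1 letters TGANTCA were found for 0 of the 8, and 6.75% of all windows hold them. A match is a description of these letters and not a binding site. Shown with matches in capitals are the 2 genes with the largest rise, Tnc and Spp1, and Postn, the most variable among tumours. In the windows shown, the TATAAA began 26 bases before the annotated start in Postn, 126 in Tnc and 211 in Spp1. A second, overlapping window of Tnc held the same match 205 bases before its start. The second windows of Postn and Spp1 held no match.
Tnc, chr4:64047016-64047265, minus strand: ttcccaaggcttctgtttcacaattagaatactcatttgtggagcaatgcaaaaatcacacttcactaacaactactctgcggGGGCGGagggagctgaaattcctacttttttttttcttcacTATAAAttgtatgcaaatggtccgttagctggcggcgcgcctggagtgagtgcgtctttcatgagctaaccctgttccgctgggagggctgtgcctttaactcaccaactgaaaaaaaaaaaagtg
Spp1, chr5:104434861-104435110, plus strand: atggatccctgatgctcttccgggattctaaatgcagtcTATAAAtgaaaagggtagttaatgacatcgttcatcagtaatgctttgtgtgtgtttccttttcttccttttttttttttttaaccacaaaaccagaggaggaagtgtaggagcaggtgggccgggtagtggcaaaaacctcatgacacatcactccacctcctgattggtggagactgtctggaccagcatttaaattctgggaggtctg
Postn, chr3:54360857-54361106, plus strand: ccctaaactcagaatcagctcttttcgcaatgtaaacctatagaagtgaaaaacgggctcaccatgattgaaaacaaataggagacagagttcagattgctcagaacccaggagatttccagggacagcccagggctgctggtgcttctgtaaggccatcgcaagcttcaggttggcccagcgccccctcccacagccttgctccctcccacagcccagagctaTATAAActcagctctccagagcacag

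Related genes from 4 lists, also chosen with earlier results of these data known, were set beside the 10. Of 17 tested receptors that bind these glycoproteins, 11 were higher and 6 did not pass, with a median log2 fold change of 1.76. Syndecan-1 (Sdc1) rose by 8.60 ± 0.32 (SE; edgeR adjusted p = 2.8e-07), with 311 ± 59.4 CPM in tumours (SD, n = 5) and 0.778 ± 0.254 CPM in brains (SD, n = 3). Itga5, the alpha chain of the main fibronectin receptor, rose by 6.58 ± 0.66 (SE; edgeR adjusted p = 3.6e-05), with 161 ± 84.6 CPM in tumours and 1.65 ± 0.502 CPM in brains. Its partner Itgb1, named after its values were seen, had 6621 ± 1776 CPM in tumours and 111 ± 4.31 CPM in brains. The 6 that did not pass were Itga8, Itga4, Lrp1, Ptprz1, Cd47 and Itgb8, with log2 fold changes of 2.25, 0.91, -0.23, -0.28, -0.45 and -0.53.

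Of 15 tested genes of hyaluronan turnover and CD44 partners, 12 were higher and 1 was lower, with a median log2 fold change of 2.62. Has2, a hyaluronan synthase, rose by 7.11 ± 0.81 (SE; edgeR adjusted p = 7.6e-05; 7.80 without brain 2), with 10 fragments in the brains. Msn, or moesin, which links CD44 to the actin cortex, rose by 5.63 ± 0.50 (SE; edgeR adjusted p = 1.9e-05). The 1 lower gene was the synthase Has3, at 1.10 CPM in tumours and 4.09 CPM in brains (log2 fold change -1.82 ± 0.61). Has3 lost its call without brain 1, brain 2 or tumour 1 (adjusted p = 0.082, 0.07 and 0.052), and its value was -2.52 without tumour 5. Has1 and Hyal3 had too few fragments to test.

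Of 17 genes of TGF-beta activation and signalling, 11 were higher and 6 did not pass, with a median log2 fold change of 0.97. Ltbp1, which tethers latent TGF-beta to the matrix, rose by 4.89 ± 0.40 (SE; edgeR adjusted p = 1.1e-05). Tgfb1, named after its values were seen, stood at 7.48 CPM in tumours and 0.254 CPM in brains.

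Other matricellular genes went both ways. Of 22 tested, 9 were higher, 7 lower and 6 did not pass, with a median log2 fold change of 0.21. These shares, 40.9% and 31.8%, are near the 37.1% higher and 33.9% lower of all tested genes. Fbln2 (fibulin-2) rose by 6.86 ± 0.35 (SE; edgeR adjusted p = 1e-06) and Ccn5 by 5.36 ± 0.47 (SE; edgeR adjusted p = 1.6e-05; 5.98 without brain 3), with 5 fragments in the brains. Spock1, a proteoglycan of the SPARC family that neurons express, fell by 4.54 ± 0.24 (SE; edgeR adjusted p = 1.2e-06). Its relatives Spock2 and Spock3, named after their values were seen, had log2 fold changes of -3.91 and -3.89. In each of these lists the background was the same 37.1% of tested genes called higher.

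**Figure D5:**
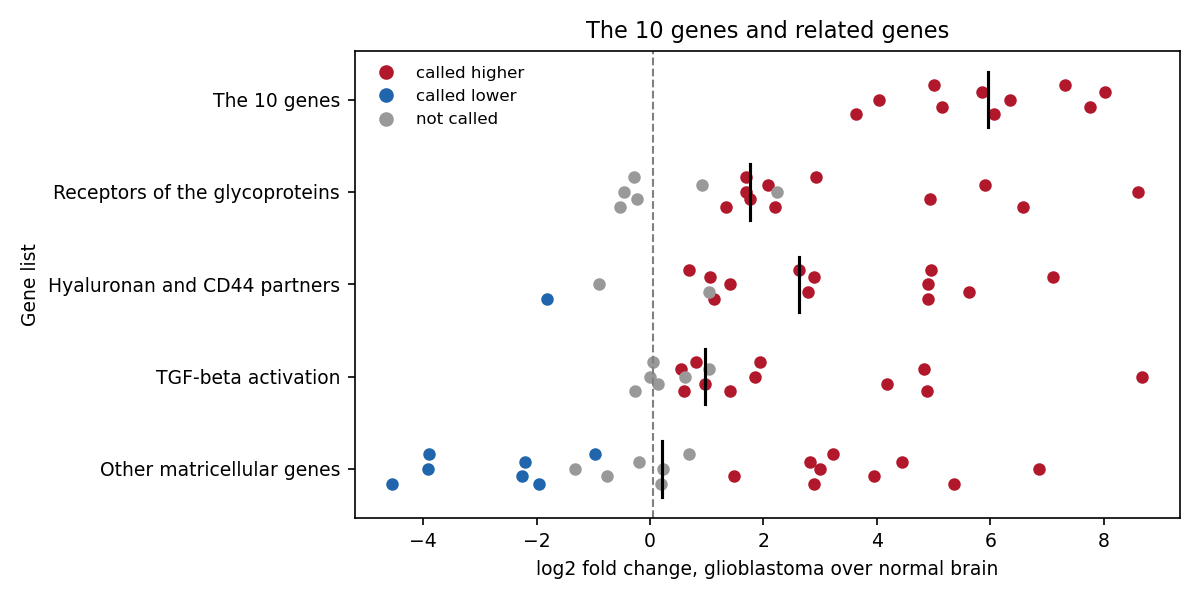
Log2 fold change, glioblastoma over normal brain, of each tested gene of the 10 and of 4 related lists; red points were called higher, blue lower and grey not called (edgeR adjusted p threshold 0.05). Black lines are list medians (5.96 for the 10 genes, 0.21 for other matricellular genes), and the dashed line is the median of all tested genes, 0.06.

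Close relatives of SPARC and tenascin-C that are abundant in adult brain were set against them after their values were seen. Sparcl1, or hevin, had 426, 399, 389, 607 and 929 CPM in tumours 1 to 5, against 2634, 2547 and 2706 CPM in brains 1 to 3. It was lower in every tumour than in any brain, with a log2 change of -2.26 ± 0.29 (SE; adjusted p = 0.00016 by edgeR). The log2 ratio of Sparc to Sparcl1 CPM, which is not per length and is read only between groups, was 2.14 ± 0.46 in tumours (SD, n = 5) and -3.84 ± 0.20 in brains (SD, n = 3), a difference of 5.98 that the choice of the pair fixed in sign and that has no test.

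Tnr, or tenascin-R, a component of perineuronal matrix made by oligodendrocyte lineage cells and some neurons, had 54.0, 5.77, 11.1, 107 and 10.9 CPM in tumours 1 to 5, against 162, 183 and 179 CPM in brains 1 to 3. Tumours 1 and 4, the same libraries in which the oligodendrocyte precursor list was high, held the most among tumours, though less than any brain. The part of those cells in the level of Tnr was not tested. Its log2 fold change was -2.20 ± 0.84 (SE; edgeR adjusted p = 0.042), and the call was lost without any 1 library other than tumour 4 (adjusted p between 0.055 and 0.087; -3.10 without tumour 4). The log2 ratio of Tnc to Tnr was 7.25 ± 1.72 in tumours (SD, n = 5) and -3.80 ± 0.14 in brains (SD, n = 3), a difference of 11.05, again a description of a pair chosen after its values were seen.

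For each of the 10 genes the nearest profiles were sought over all 8 libraries, by the root mean square difference of gene-centred log2 CPM among the 11705 genes whose larger group mean reached 10 CPM. Nearest to Tnc was Sdc1 (0.30), the receptor named above, and nearest to Spp1 was Areg (0.25), followed by Thbs1 (0.37), the 1 case of a nearest gene from among the 10. Sparc was nearest to Lyn (0.14), Cd44 to Ttk (0.22), Vcan to Pole (0.25), Tgfbi to Mki67 (0.25) and Thbs1 to Lilr4b (0.30). Thbs2 was nearest to B3gnt5 (0.31), Fn1 to Igsf6 (0.34) and Postn to Ptpn7 (0.35). These distances describe 8 libraries of 2 tissues and rest mostly on the difference between tumour and brain.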

How the data were processed

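RNA was sequenced from 5 glioblastomas and 3 normal brains, grouped by source name; brains and tumours are numbered by accession, and the numbers do not match samples across groups. Per the submitters' processing notes, STAR 2.3.0e, Cuffdiff 2.1.1 and the mm9 build were used, without roles or settings; no label names an annotation release or a strand option. The labels' protocols name Illumina TruSeq RNA library preparation. The authors deposited estimated counts of fragments and FPKM values, scaled per library, for each RefSeq accession and library. Accessions were named from RefSeq (30474) and GENCODE M21 (178), 315 were left unnamed, and estimated counts were summed per gene and rounded. Totals were 5490356 to 15564279 fragments, so that 3 fragments equal 0.193 to 0.546 CPM. No value of the 10 genes had the status FAIL.

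edgeR 4.0.16 (TMM factors, default filter on low counts, robust quasi-likelihood F test) was fitted to all 8 libraries, with Benjamini-Hochberg adjustment over 14641 genes; all 10 genes passed the filter. Standard errors derive from the F statistic, and a prior count of 2 entered log2 CPM. Shares of a gene's leading accession were compared by exact permutation over samples where every library held at least 20 fragments. FPKM of accessions were summed per gene. The named genes were the 10 members, the 2 most changed called genes of each related list with at least 10 CPM and the most changed in the other direction, and the 2 nearest profiles of each member, of which the nearest are given. A gene that this rule names is not reported here. The members and lists were chosen with earlier results of these data known. Alternatives were DESeq2 1.42.0; scaling by upper quartile, by RLE or by library size alone; the low-count filter dropped or set to 5 CPM in 3 samples; limma 3.58.1 on log2(FPKM + 1) and log2(FPKM + 0.1), and each library left out; the joint omission of brain 1 and tumour 4 was added after seeing the data. The fit was tested on simulated data in which few genes changed, in equal numbers up and down. Many genes differ here, so that test does not cover the scaling of these data. R 4.3.3, pandas 2.3.3, scipy 1.17.1 and matplotlib 3.10.9 were used. Counts of overlapping genes are uncertain because no strand setting is stated.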

Additional observations from a re-analysis of the deposited data

Results flagged for a closer look

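Tumour 4 stood apart from the other 4 tumours in 3 of the 23 sets of tumour values examined. In those its gap to the nearest tumour exceeded 0.71 of the range. For normally distributed values chance flags about 1 set in 20. That rate does not apply to the V2 shares, where 1 nonzero value makes the gap the whole range. Of the 3 sets, 2 are linked through the versican forms. Tgfbi was at 6.15 log2 CPM in tumour 4, below all others. The V2 form of Vcan held 15.5% of its estimated fragments in tumour 4 and 0% in the other tumours. Forms of Vcan with the beta exon held 82.1% in tumour 4, against 98.0% to 99.1% in the other tumours. Tumour 4 also had the deepest library and the highest oligodendrocyte precursor, astrocyte and myelinating oligodendrocyte marker levels; the part of these in the 3 values was not tested.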

How the results depend on the processing

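All 10 genes were called higher under each of the 17 alternatives, with the largest adjusted p of the 170 values at 0.0012, and leaving out 1 library moved none of their fold changes by more than 1.37 times. With log2(FPKM + 1), whose pseudocount shrinks low genes by construction, some fold changes, before the log, were lower by over 1.5 times. Given on the log2 scale, these were Postn (4.93), Tgfbi (4.86), Thbs1 (6.32), Tnc (7.36), Cd44 (5.44) and Vcan (3.21). Among the related genes named above as higher they were Has2 (3.75), Tgfb1 (2.04), Ccn5 (2.66), Sdc1 (6.34), Itga5 (4.57) and Fbln2 (6.10). With a pseudocount of 0.1 Tnc and Cd44 were at 7.94 and 6.06, but Vcan only at 3.49, against 4.04; the cause was not tested. Has3 was at -0.51 with the pseudocount of 1. Without both brain 1 and tumour 4 the log2 fold change of Tgfbi was 6.50. Counts of genes called higher ranged from 4796 to 5741 and lower from 4431 to 5465 with 1 library left out. With library size only, 5893 genes were higher and 4410 lower; over all genes the median log2 change was then 0.20, against 0.06, and 0.18 with upper quartile factors. The difference in the leading share of Fn1 ran from -21.3 to 24.8 percentage points with 1 library left out, changing sign without brain 1 (24.8) and without tumour 2 (0.91), and that of Spp1 from -8.75 to 8.85, changing sign without brain 3 (-8.75); none of these had passed. For Vcan the range was 24.1 to 27.2 and for Cd44 -9.32 to -7.59. Tnr and Tnxb lost their calls in 9 and 13 of the alternatives. Brain depth limits the forms of Fn1, Spp1, Postn, Cd44 and Vcan. No paired analysis was possible because no label matches a tumour to a brain.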
